A study of Homo sapiens with 26 samples.

Results

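Cytosolic heat shock chaperones are the 10 genes HSPA1A, HSPA4, HSPA8, HSPH1, HSP90AA1, HSP90AB1, DNAJA1, DNAJB1, HSPB1 and BAG3, chosen by name. Of these, 9 had a named probe set among the 17687 genes measured, and HSPA8 was not analysed here. Where a gene had several probe sets, the one with the highest mean was read. The rule itself uses gene names and no measured value, but the list was drawn up with earlier results of these data known.

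The study profiled 3 human lung cancer cell lines on 26 biotin-labelled arrays of a single colour. NCI-H1975 (H1975, lung adenocarcinoma) had 5 Omomyc and 4 PBS arrays, A549 (lung carcinoma) had 3 and 4, and NCI-H1299 (H1299, lung carcinoma) had 5 and 5. All cells were grown in RPMI1640 with glutamine and fetal bovine serum. Omomyc is a miniprotein derived from the transcription factor MYC that competes for its partner MAX. It was added to the medium at 12.8 µM, and the sources used here give no exposure time. Phosphate-buffered saline (PBS), its vehicle, was the only control. The arrays of a group are labelled as biological replicas and no label speaks of separate cultures, so a p-value covers only the spread among these arrays, which may be technical.

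Cytosolic chaperones hold unfolded proteins and help them fold. Hsp70 proteins bind exposed stretches of a client in an ATP cycle that J-domain proteins start and Hsp110 proteins reset, Hsp90 acts on later folding steps, and small heat shock proteins hold clients without ATP. Many of these genes are induced by the transcription factor HSF1, which binds heat shock elements, runs of short GAA units in alternating orientation. The endoplasmic reticulum (ER) has chaperones of its own, induced by the unfolded protein response, in part through the ER stress response element. The question here is whether the cytosolic genes moved against the ER genes.

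The promoter windows of RefSeq (GRCh38.p14), which run from upstream of each listed start to just after it, were searched on both strands. All 9 members had a window. The heat shock element of 3 units (GAA, TTC and GAA, or TTC, GAA and TTC, with any 2 bases between units) lay in those of HSP90AA1, HSP90AB1 and DNAJA1, 3 of 9 members, in 0 of 18 ER genes with a window, and in 0.608% of all 27305 genes with a window. The shorter form of 2 units (GAANNTTC or TTCNNGAA), which every 3-unit match also holds, lay in 6 of 9 members, in 2 of 18 ER genes (SIL1 and CANX) and in 16.2% of all genes. The ER stress response element (named here by its CCAAT and CCACG ends) lay in 0 of 9 members, in 5 of 18 ER genes and in 0.0916% of all genes. A match describes letters and does not show that a factor binds there. The stretches are printed as examples of the motifs in members and ER genes, with the motif in capitals, each 5′ to 3′ on the gene's strand. They lie at chr14:102087110-102087142 (minus strand, HSP90AA1), chr6:44247768-44247853 (plus, HSP90AB1), chr9:33025268-33025296 (plus, DNAJA1), chr6:31815425-31815456 (plus, HSPA1A) and chr19:14518425-14518486 (minus, DNAJB1). The 2 ER examples lie at chr9:125241383-125241417 (minus, HSPA5) and chr22:49918546-49918580 (plus, CRELD2).
HSP90AA1: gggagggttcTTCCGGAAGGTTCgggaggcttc
HSP90AB1: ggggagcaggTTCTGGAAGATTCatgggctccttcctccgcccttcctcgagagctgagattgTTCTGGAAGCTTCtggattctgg
DNAJA1: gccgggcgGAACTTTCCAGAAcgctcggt
HSPA1A: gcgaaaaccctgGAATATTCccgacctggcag
DNAJB1: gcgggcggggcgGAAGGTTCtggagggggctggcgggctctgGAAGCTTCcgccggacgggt
HSPA5: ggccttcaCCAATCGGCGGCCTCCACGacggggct
CRELD2: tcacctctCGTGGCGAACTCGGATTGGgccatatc

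The values are the deposited log2 values, in which a difference of 1 is a doubling. Levels of different probe sets are not comparable, so each gene is compared only with itself. The lowest value of any member on any array was 8.91, above the 6.69 of the highest mean among 23 background probe sets. By their sorted values the arrays fell into 3 clusters of 9, 10 and 7 arrays, called runs here, and A549 had no Omomyc array in run 3. KRT8 and KRT18, keratins of epithelial cells, were above background in all 6 groups. KRT19, another keratin, was above background in H1975 and A549. In H1299 KRT19 was in the range of background (3.96 with Omomyc and 4.20 with PBS). CDH1 was in that range in H1975 (3.73 with Omomyc and 3.93 with PBS) and H1299 (3.11 with Omomyc and 3.33 with PBS). EPCAM was in that range in H1299 (3.76 with Omomyc and 3.92 with PBS). PTPRC, CD3E, LYZ, PECAM1 and CDH5, markers of immune and endothelial cells, averaged between 2.60 and 3.87 in all groups. CD14, also listed as an immune marker, averaged 8.17 with Omomyc and 11.1 with PBS in H1975. In A549 CD14 averaged 9.19 with Omomyc and 9.45 with PBS, and in H1299 3.52 and 3.35. The fibroblast genes COL1A1 (8.30 with Omomyc and 9.44 with PBS) and COL1A2 (7.32 and 8.05) were above background in H1975. Both were between 5.55 and 5.97 in A549 and H1299. DCN and LUM averaged 2.81 to 4.63 and VWF, an endothelial marker, 3.36 to 3.88 in all groups. The part of these genes in the results was not tested. The targets of NRF2 named AKR1B10 and AKR1C1 averaged 16.7 to 17.1 in A549, far above both other lines.

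**Figure D1:**
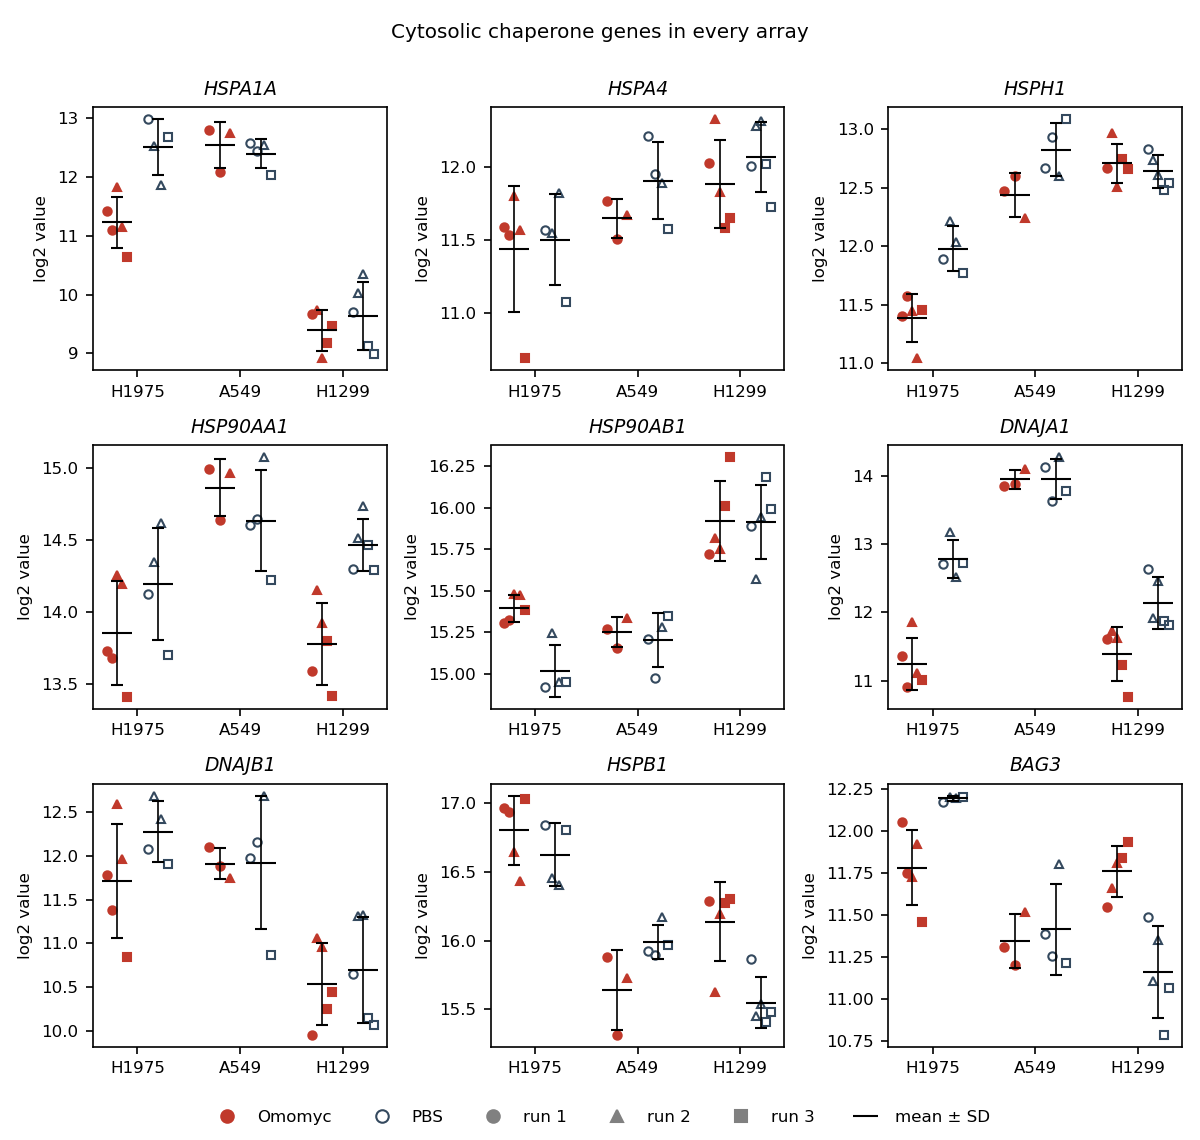
Log2 value (y axis) of each of the 9 measured genes on each array, by cell line (x axis), with Omomyc filled and left of open PBS symbols, marker shape giving the run, and bars the mean ± SD. HSPA1A and DNAJA1 of H1975 separate without overlap, Omomyc below PBS, while HSP90AB1 of H1975 and BAG3 of H1299 lie higher with Omomyc on every array.

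In PBS, 4 of 9 members differed between H1975 and A549 (38.3% of all genes) and 4 between A549 and H1299 (41.5%). Between H1975 and H1299 8 did (42%). The largest gap was HSPA1A, the stress-inducible Hsp70, whose probe set may also read its near-identical copy HSPA1B. It averaged 12.5 ± 0.47 in H1975 PBS and 12.4 ± 0.25 in A549 PBS (SD, n = 4 each), against 9.64 ± 0.58 in H1299 PBS (SD, n = 5). H1975 was above H1299 by 2.87 ± 0.28 (SE, limma adjusted p = 1.05e-09) and A549 by 2.76 ± 0.28 (adjusted p = 2.34e-09), and H1975 and A549 differed by 0.11 ± 0.30 (adjusted p = 0.827). DNAJA1, a J-domain partner of Hsp70, was ordered A549, H1975, H1299, at 13.9 ± 0.30, 12.8 ± 0.28 and 12.1 ± 0.38 (SD, n = 4, 4 and 5). DNAJB1, the J-domain protein most tied to heat shock, was lower in H1299 than in H1975 (difference 1.58 ± 0.35) and A549 (1.23 ± 0.35).

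Of the Hsp90 and Hsp110 genes, HSP90AB1 alone was higher in H1299 than in both other lines. HSP90AB1, the constitutive Hsp90, was lower in PBS-treated H1975 than in H1299 (-0.90 ± 0.17) and in A549 than in H1299 (-0.71 ± 0.17). HSPH1, the stress-inducible Hsp110, was lower in H1975 than in A549 (-0.84 ± 0.18) and than in H1299 (-0.66 ± 0.17), and the A549 to H1299 step of 0.18 ± 0.17 was not called. BAG3, the co-chaperone that links Hsp70 to autophagy, and HSPB1, the small heat shock protein Hsp27, were highest in H1975, above A549 by 0.78 ± 0.19 and 0.64 ± 0.20 and above H1299 by 1.03 ± 0.18 and 1.08 ± 0.19.

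HSPA4, another Hsp110 protein, was called only between H1975 and H1299 (-0.57 ± 0.22, adjusted p = 0.0387). HSP90AA1, the inducible Hsp90, was called in none of the 3 comparisons. In all, 4 members differed between H1975 and A549, where 38.3% of all genes did, 8 between H1975 and H1299 (42% of all genes) and 4 between A549 and H1299 (41.5%). Blocking on the run gave 6, 8 and 4 (of all genes 45.1%, 49% and 47.3%), with HSPA4 and HSP90AA1 added for H1975 against A549. The HSPA4 gap between H1975 and H1299 was not called without PBS 1, 2 or 4 of H1975 or PBS 1, 2, 3 or 4 of H1299 (adjusted p up to 0.164), and the DNAJA1 gap between them (0.64 ± 0.24) was not called without H1975 PBS 2 or H1299 PBS 2, 4 or 5 (up to 0.124).

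In H1975, 3 cytosolic chaperone genes fell with Omomyc and 0 of 9 rose. DNAJA1, HSPA1A and HSPH1 were lower, at a Benjamini-Hochberg adjusted p under 0.05 in limma over all genes, where 6.28% of all genes fell, 5.57% rose and 11.8% changed. The median of the 9 changes was -0.41, beside 0.004 over all genes, and 7 of 9 were below 0.

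DNAJA1 read 11.35, 10.90, 11.86, 11.11 and 11.01 in H1975 Omomyc arrays, against 12.70, 13.17, 12.52 and 12.72 in H1975 PBS arrays. No Omomyc array reached a PBS array. The change was -1.53 ± 0.24 (SE, limma adjusted p = 3.91e-05), and it was called without any single array. With the replicate block and the run together it was -1.01 and still called.

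HSPA1A read 11.43, 11.09, 11.83, 11.15 and 10.64 in H1975 Omomyc arrays, against 12.98, 12.52, 11.86 and 12.68 in PBS arrays. The highest Omomyc and the lowest PBS array, both of run 2, were 11.83 and 11.86. The change was -1.28 ± 0.28 (limma adjusted p = 0.00234), called without any single array, and within runs 1, 2 and 3 it was -1.72, -0.70 and -2.04. With the replicate block and the run together it was not called (-0.79, adjusted p = 0.293), nor in run 2 alone (0.316).

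HSPH1 read 11.41, 11.58, 11.44, 11.04 and 11.46 in H1975 Omomyc arrays, against 11.89, 12.22, 12.03 and 11.77 in PBS arrays. The 2 groups did not overlap. The change was -0.59 ± 0.17 (limma adjusted p = 0.02), but it was not called without PBS 2 (0.0867), PBS 3 (0.0506) or Omomyc 4 (0.0626), or in a fit on H1975 alone (0.105). Its adjusted p was 0.00782 with the run as a block, and the 3 genes named were again those called, where 19.2% of all genes were.

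The other 6 genes did not pass in H1975. BAG3 read 12.05, 11.75, 11.73, 11.92 and 11.46 with Omomyc, against 12.17, 12.20, 12.20 and 12.20 with PBS, a change of -0.41 ± 0.18 (limma adjusted p = 0.156) with no overlap. HSP90AB1 read 15.31, 15.33, 15.48, 15.48 and 15.38 with Omomyc, against 14.92, 15.25, 14.95 and 14.95 with PBS, a change of 0.38 ± 0.17 (adjusted p = 0.169), again with no overlap. In all, 5 members did not overlap (4 lower, 1 higher), where 10.5% of all genes did not (5.35% lower, 5.18% higher). In a check chosen after seeing the data, with the run as a block and 1 array left out, HSP90AB1 was called without PBS 2 (0.48, adjusted p = 0.0402) and DNAJB1 without Omomyc 3 (-0.67, 0.0354). DNAJB1 (-0.56 ± 0.35), HSP90AA1 (-0.34 ± 0.22), HSPA4 (-0.07 ± 0.22) and HSPB1 (0.17 ± 0.19) overlapped.

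In A549, 0 of 9 cytosolic chaperone genes changed, where 1.19% of all genes did, and 0 of 9 had an unadjusted p under 0.05 in limma. Of all genes 0.916% rose and 0.277% fell. With the run as a block the count was also 0, where 2.84% of all genes changed. Changes lay between -0.38 (HSPH1, SE 0.19) and 0.23 (HSP90AA1, SE 0.25), with a median of -0.01 beside 0.04 over all genes. Standard errors ran up to 0.40 (DNAJB1, 0.35 in H1975 and 0.33 in H1299), and a p that misses the threshold does not show that these genes stayed the same.

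DNAJA1 read 13.84, 13.88 and 14.10 in A549 Omomyc arrays, against 14.12, 13.63, 14.26 and 13.78 in PBS arrays. HSPA1A read 12.80, 12.09 and 12.75 with Omomyc, against 12.58, 12.45, 12.54 and 12.03 with PBS. Both genes overlapped, at -0.01 ± 0.27 and 0.15 ± 0.32. HSPB1 read 15.88, 15.31 and 15.73 with Omomyc, against 15.92, 15.89, 16.17 and 15.97 with PBS, a change of -0.35 ± 0.22 (limma adjusted p = 0.763). It was the only member without overlap in A549, where 9.39% of all genes did not overlap (3.6% lower, 5.79% higher).

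In H1299, 2 members rose and 2 fell with Omomyc, where 4.35% of all genes rose, 4.52% fell and 8.87% changed. BAG3 and HSPB1 were higher and DNAJA1 and HSP90AA1 lower. The median of the 9 changes was -0.16, beside 0.002 over all genes.

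BAG3 read 11.55, 11.66, 11.81, 11.84 and 11.94 in H1299 Omomyc arrays, against 11.49, 11.11, 11.35, 10.79 and 11.06 in PBS arrays. All 5 Omomyc arrays were above all PBS arrays. The change was 0.60 ± 0.17 (limma adjusted p = 0.0214), and it was 0.06 in run 1, 0.50 in run 2 and 0.96 in run 3.

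HSPB1 read 16.29, 15.63, 16.19, 16.27 and 16.30 in H1299 Omomyc arrays, against 15.86, 15.45, 15.54, 15.41 and 15.48 in PBS arrays. Omomyc 2 fell below PBS 1 and the other 4 Omomyc arrays were above every PBS array. The change was 0.59 ± 0.18 (limma adjusted p = 0.0346).

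DNAJA1 read 11.61, 11.72, 11.62, 11.22 and 10.76 in H1299 Omomyc arrays, against 12.64, 11.92, 12.46, 11.86 and 11.81 in PBS arrays. There was no overlap. The change was -0.75 ± 0.22 (limma adjusted p = 0.0305).

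HSP90AA1 read 13.59, 14.15, 13.93, 13.80 and 13.42 in H1299 Omomyc arrays, against 14.30, 14.52, 14.74, 14.47 and 14.30 in PBS arrays. There was no overlap here either, and 3 members (1 higher, 2 lower) did not overlap where 8% of all genes did not (3.91% higher, 4.09% lower). The change was -0.69 ± 0.21 (limma adjusted p = 0.0342).

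All 4 calls of H1299 were near the threshold and hung on single arrays. BAG3 was not called without PBS 4 or 5 or Omomyc 5 (limma adjusted p up to 0.0787). DNAJA1 was not called without PBS 1 or 3 or Omomyc 4 or 5 (up to 0.116), and HSP90AA1 without PBS 2, 3 or 4 or Omomyc 1, 4 or 5 (up to 0.103). HSPB1 was called only without PBS 1 or Omomyc 2, and was not called in the other 8 cases (up to 0.084). In a fit on H1299 alone, HSP90AA1 was the only member called. With the run as a block the same 4 were called, where 15.9% of all genes were, at an adjusted p of 0.00133 (HSP90AA1) to 0.011 (HSPB1), and, in a check chosen after seeing the data, all 4 were called without any single array (up to 0.0391).

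The other 5 genes of H1299 lay between -0.25 ± 0.27 (HSPA1A) and 0.07 ± 0.16 (HSPH1). HSPA1A read 9.67, 9.73, 8.91, 9.17 and 9.47 in H1299 Omomyc arrays, against 9.70, 10.02, 10.36, 9.12 and 8.99 in PBS arrays, and the groups overlapped. HSPH1 read 12.67, 12.97, 12.51, 12.74 and 12.66 with Omomyc, against 12.83, 12.74, 12.61, 12.48 and 12.54 with PBS.

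**Figure D2:**
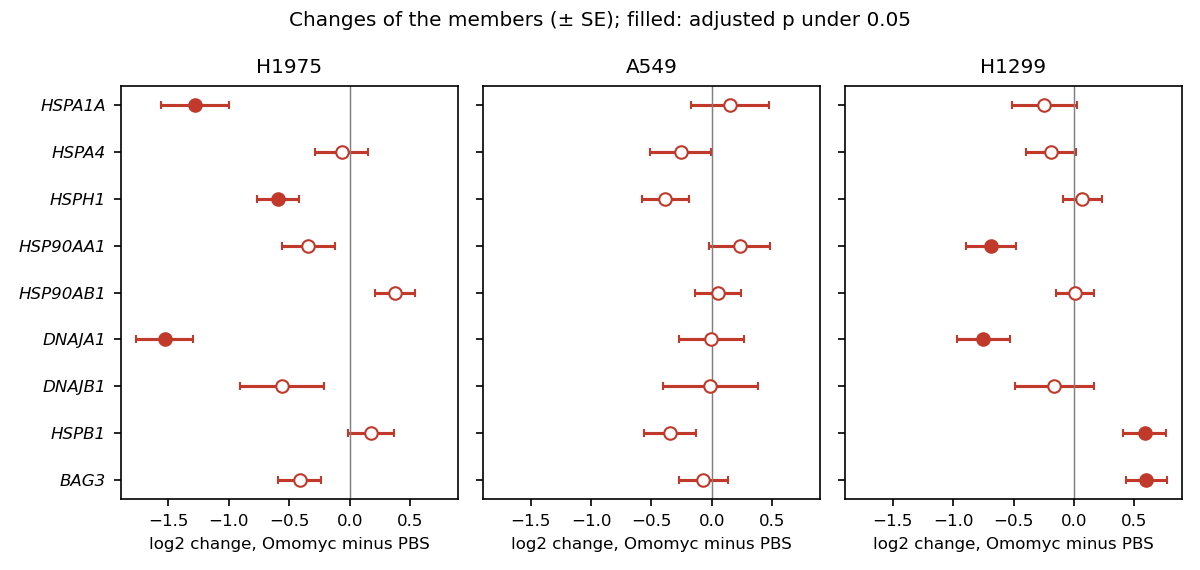
Change of each of the 9 genes (rows) with Omomyc, as log2 Omomyc minus PBS (x axis, bars ± SE of the limma fit) in H1975, A549 and H1299, filled where the adjusted p is under 0.05. DNAJA1 is at -1.53 in H1975, -0.01 in A549 and -0.75 in H1299, and BAG3 at -0.41, -0.07 and 0.60.

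The difference of response between lines was called for 2 genes. The DNAJA1 change of H1975 minus that of A549 was -1.53 ± 0.36 (limma adjusted p = 0.0104), 1 of 9 members where 4.62% of all genes differed. The BAG3 change of H1975 minus that of H1299 was -1.01 ± 0.25 (adjusted p = 0.0105), 1 of 9 where 5.7% of all genes differed, and median centring of the arrays moved it to 0.0511. Between A549 and H1299, 0 of 9 were called, where 2.47% of all genes were.

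Some response differences appeared with the run as a block. HSPA1A then differed between H1975 and A549 (-1.34, adjusted p = 0.0205, against -1.43 and 0.0513 without the block) and between H1975 and H1299 (-1.06, 0.0414, against 0.13). HSPH1 differed between H1975 and H1299 (-0.67, 0.0464). HSP90AA1 (0.84, 0.0264) and HSPB1 (-0.92, 0.0263) differed between A549 and H1299. The share of all genes called was then 10.3%, 11.7% and 6.41%.

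Averaged over the 3 lines, DNAJA1 was the only member called, at -0.76 ± 0.14 (limma adjusted p = 0.000435), where 11.2% of all genes were. That average joins -1.53 in H1975, -0.01 in A549 and -0.75 in H1299, so it is not a fall shared by all 3 lines. With the run as a block HSP90AA1 (-0.28), HSPA1A (-0.50) and HSPH1 (-0.31) were called too, where 18.4% of all genes were. Over the 6 group means, each gene centred on its own mean, the genes nearest to DNAJA1 were TLCD1, AMD1 and HLCS, with root mean square differences of 0.13, 0.18 and 0.22. Those nearest to HSPH1 were AP3M1, TJP1 and ANKRD19P, at 0.079, 0.082 and 0.085.

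Of 37 cytosolic partners of these chaperones, 31 were measured. In H1975 1 rose and 3 fell, in A549 2 rose and 0 fell, and in H1299 1 rose and 3 fell, where 11.8%, 1.19% and 8.87% of all genes changed. In H1975 DNAJB5, a J-domain protein, rose by 2.60 ± 0.26, and HSPA2, an Hsp70 best known from testis, was at -2.17 ± 0.36. BAG2, an Hsp70 nucleotide exchange factor, was lower (-0.73 ± 0.18), as was HSPA4L, an Hsp110 relative (-0.60 ± 0.20). HSPA4L was not called without 7 of the 9 arrays, one at a time.

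In A549 CRYAB, a small heat shock protein, rose by 1.05 ± 0.20 and DNAJB5 by 1.22 ± 0.30. Their group means of 5.64 and 5.87 with Omomyc and 4.59 and 4.65 with PBS were within the range of background probe sets, and DNAJB5 was not called without 6 of the 7 arrays, one at a time. In H1299 DNAJB2, a J-domain protein best known from neurons, rose by 1.88 ± 0.25. DNAJC7, which binds both Hsp70 and Hsp90, was at -1.10 ± 0.16, CACYBP at -0.81 ± 0.25 and CHORDC1, an Hsp90 co-chaperone, at -0.75 ± 0.23, and CACYBP and CHORDC1 were not called without 6 and 5 of the 10 arrays, one at a time.

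HSF1 itself was called in no line, at 0.27 ± 0.21 in H1975, -0.24 ± 0.24 in A549 and 0.15 ± 0.20 in H1299. Its mRNA level does not measure the activity of the protein. Among 7 mitochondrial chaperones, HSPA9, the mitochondrial Hsp70, fell by 0.92 on the log2 scale (SE 0.21) in H1299, and HSPD1 (0.03, 0.07 and -0.38 in H1975, A549 and H1299) and HSPE1 (-0.62, 0.18 and -0.51) were not called. Blocking on the run gave 1 higher and 1 lower of 7 in H1975 (TRAP1 0.57, HSPE1 -0.61), where 19.2% of all genes were called. It gave 5 of 7 lower in H1299 (HSPA9, DNAJA3, GRPEL1, TRAP1 and HSPE1), where 15.9% of all genes were called. HSPD1 was called in H1299 under trend and robust moderation (limma adjusted p = 0.0435).

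**Figure D3:**
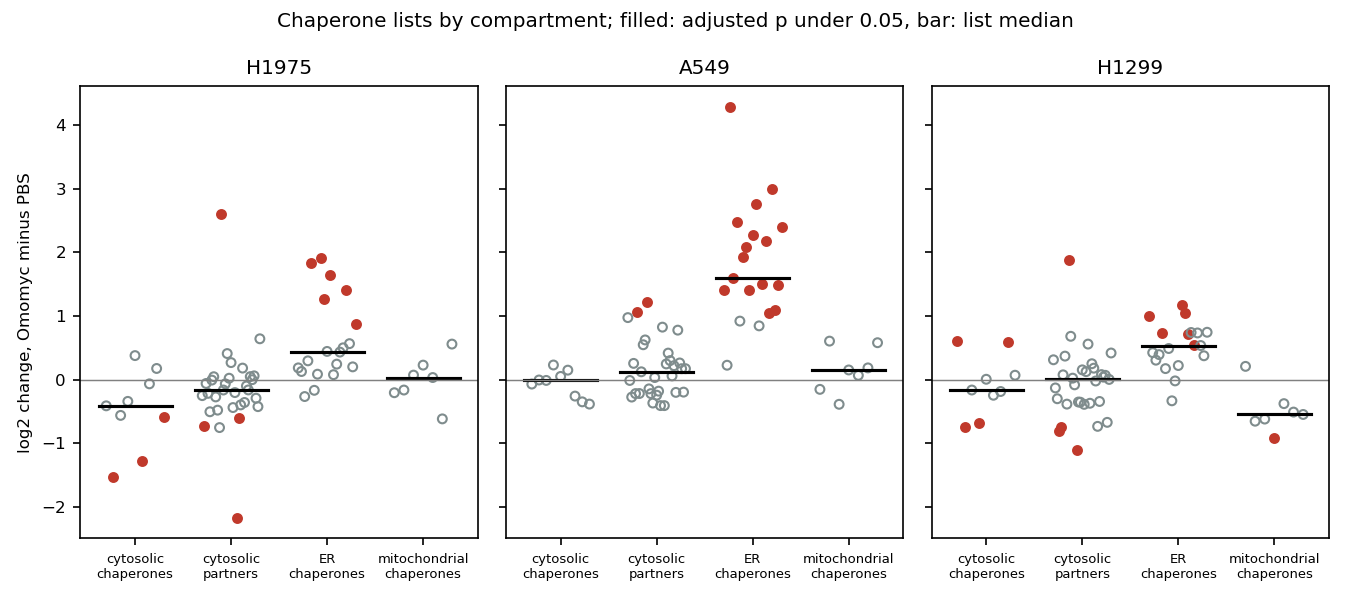
Log2 change with Omomyc (y axis) of each gene in 4 chaperone lists (x axis) in H1975, A549 and H1299, filled where the limma adjusted p is under 0.05, with a bar at each list's median. ER chaperones have medians of 0.43, 1.60 and 0.54 and cytosolic chaperones of -0.41, -0.01 and -0.16.

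The number of ER chaperones that rose with Omomyc differed between the lines. Of 20 listed, 19 were measured and HSP90B1 was not analysed here. This list too was drawn up with earlier results of these data known, so the shares of all genes are no independent yardstick. With Omomyc 6 rose and 0 fell in H1975 (median 0.43), 16 rose and 0 fell in A549 (median 1.60) and 6 rose and 0 fell in H1299 (median 0.54), where 5.57%, 0.916% and 4.35% of all genes rose. Blocking on the run gave 8, 18 and 10, where 1658, 303 and 1367 of all 17687 genes rose. Leaving out 1 array gave 4 to 7 in H1975 (4 without PBS 4), 16 each time in A549 and 3 to 7 in H1299 (3 without PBS 5 or Omomyc 2). Below 0 were CRELD2 and DNAJC10 (-0.17) in H1975 and HSPA5 and HERPUD1 (-0.33) in H1299. HSPA5, the ER Hsp70 also called BiP, rose by 1.26 ± 0.18 in H1975 and 1.41 ± 0.20 in A549 and was at -0.02 ± 0.17 in H1299.

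Other ER genes showed line differences of their own. HYOU1, the ER Hsp110, rose by 2.27 ± 0.23 in A549 and was at 0.44 ± 0.20 in H1975 and 0.22 ± 0.19 in H1299. DNAJB11, an ER J-domain protein, rose by 1.60 ± 0.23 in A549 and was at 0.29 ± 0.21 and 0.39 ± 0.19 in H1975 and H1299. CRELD2 rose by 4.29 ± 0.33 in A549 and was at -0.27 ± 0.29 in H1975, and MANF, a secreted ER stress protein, rose by 1.64, 2.76 and 1.17 in H1975, A549 and H1299.

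Each array's value of a cytosolic gene minus that of its ER relative tests unequal change of the 2 genes, and shifts also where the ER gene alone changes. Only the shift of this difference between treatments is read, since the levels of 2 probe sets are not comparable. Of 12 tests laid out, 6 could be run, because HSPA8 and HSP90B1 were not analysed here. HSPH1 minus HYOU1 shifted by -1.04 in H1975 (two-sided exact permutation p = 0.00794, adjusted over 6 tests 0.0476), by -2.66 in A549 (p = 0.0286, adjusted 0.0635) and by -0.15 in H1299 (p = 0.278). In H1975 the 5 Omomyc arrays ran from -3.18 to -2.35, against -1.82 to -1.46 in the 4 PBS arrays, without overlap. In A549 they ran from -3.33 to -3.07, against -0.72 to -0.26, also without overlap, and 0.0286 was the smallest p that 3 and 4 arrays allow.

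Without any single array of H1975 the HSPH1 minus HYOU1 shift was -1.14 to -0.93. Its adjusted p was then 0.0571 to 0.0857, in designs whose smallest p is larger, so the loss of the call says nothing about stability. After quantile normalization the shift was -1.10 (adjusted p = 0.0635). DNAJB1 minus DNAJB11 shifted by -0.86 in H1975, -1.61 in A549 and -0.56 in H1299, with exact permutation p adjusted over the 6 tests of 0.0635, 0.0762 and 0.0762.

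With DNAJA1 in place of DNAJB1, an alternative outside the tests laid out, the shift from DNAJB11 was called in all 3 lines. It was -1.83 in H1975, -1.60 in A549 and -1.14 in H1299, with exact permutation p of 0.00794, 0.0286 and 0.00794, adjusted over 6 tests to 0.0159, 0.0343 and 0.0159, and no overlap in any line. In A549 DNAJA1 itself was at -0.01 and DNAJB11 at 1.60, and DNAJB11 was the one of them called. The number of tests to adjust over was settled after first p-values were seen. DNAJA1 had the lowest change of all members in H1975 and H1299, so the tests there partly restate that change. In A549 the test restates the rise of DNAJB11. These calls are therefore no support beyond the changes of DNAJA1 and DNAJB11 themselves.

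HSPA1A minus HSPA5 was added after seeing the data, in place of the pair of HSPA8. Its shifts of -2.54 in H1975, -1.26 in A549 and -0.23 in H1299 are a description, with no test, since the changes of both genes were known when it was chosen. In H1975 HSPA1A fell and HSPA5 rose (-1.28 and 1.26), in A549 HSPA5 alone was called, and in H1299 neither was. By the calls of the 2 lists, 3 cytosolic members fell and 6 ER genes rose in H1975, 0 members changed and 16 ER genes rose in A549, and in H1299 2 members rose, 2 fell and 6 ER genes rose.

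**Figure D4:**
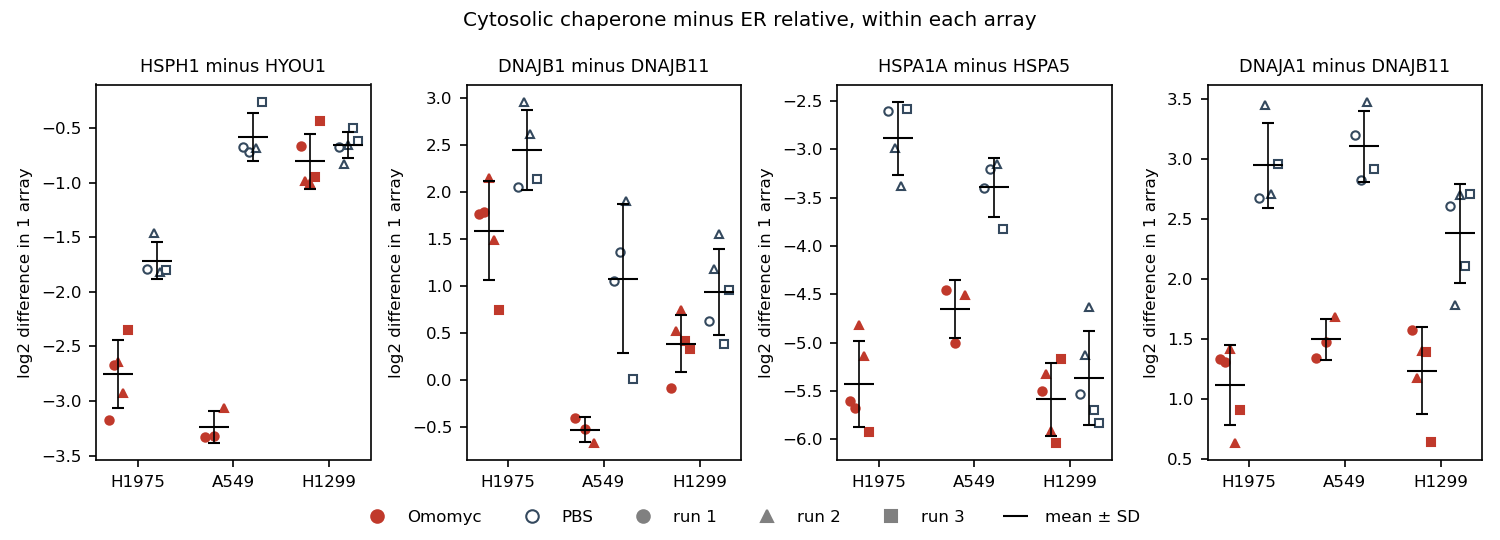
Difference within each array between a cytosolic chaperone and its ER relative (y axis, log2) for 4 pairs of genes, by line (x axis), with Omomyc filled and left of open PBS symbols, marker shape giving the run, and bars the mean ± SD. DNAJA1 minus DNAJB11 is lower with Omomyc in all 3 lines, and HSPH1 minus HYOU1 is lower in H1975 and A549.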

How the data were processed

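The deposited table holds log2 values, and RMA and Partek are named, without versions, in the submitters' processing notes. The authors' joint or separate normalization of the arrays and a genome build are not given in the sources used here. Of 24351 features, 17709 had 1 gene symbol and 6642 none, for 17687 genes, of which 20 had several probe sets (the highest mean was used). No detection calls were used. The number of arrays limits the precision.

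All 26 arrays entered 1 fit with a mean for each group and no block (limma 3.58.1, R 4.3.3, 20 residual degrees of freedom), with Benjamini-Hochberg adjustment over all genes and calls at 0.05. Runs are 3 clusters of the arrays' sorted values. Pairs of genes were tested with exact permutation tests of the difference in means. Of 12 pair tests laid out 6 could be run.

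Members and lists were chosen with earlier results of these data known. The named genes are all members, HSPA5, HYOU1, DNAJB11, HSF1, HSPD1, HSPE1 and HSPA9, called partners, and the 2 called ER genes with the smallest p in each line.

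Same-numbered Omomyc and PBS arrays correlated in their deviations from the group means at 0.11 to 0.20 in A549 and 0.26 to 0.39 in H1299, so these numbers pair arrays by the rule used, while in H1975 1 of 4 pairs was over 0.1. Every such pair of A549 and H1299 lay within a single run, and with the run removed no pair was over 0.1. The numbers there can therefore not be told apart from the runs and do not show paired cultures. On simulated data with 17687 genes the fit recovered 49%, 51% and 66% of 100 changes of 1 (log2) and 93%, 90% and 96% of 100 changes of 2 in H1975, A549 and H1299. It gave 8, 11 and 6 false calls. The simulated noise was independent and normal, with no differences between lines or runs, so recovery in the real arrays may differ. The 100 changed genes of each size were also far fewer than the 2095 and 1569 genes called in H1975 and H1299. The adjustment depends on that number, so these percentages do not rank the lines. Alternatives were other normalization, centring, filtering and moderation, the mean of probe sets, the run or replicate number as a block, each run or line alone, and leaving out each array. The closing section gives their effect.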

Additional observations from a re-analysis of the deposited data

Results flagged for a closer look

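Among the named genes, 13 of 150 groups of 4 or 5 arrays held 1 array far from the others, where chance gives about 7.5. Among the members, HSPA4 of H1975 Omomyc 5 was at 10.69 (others 11.53 to 11.8), HSPB1 of H1299 Omomyc 2 at 15.63 (others 16.19 to 16.3), HSPB1 of H1299 PBS 1 at 15.86 (others 15.41 to 15.54) and HSP90AB1 of H1975 PBS 2 at 15.25 (others 14.92 to 14.95). Both HSPB1 arrays lay between the 2 groups of H1299. Among partners, DNAJC7 of H1299 Omomyc 5 was at 11.78, HSF1 of H1975 PBS 3 at 10.46, HSPA2 of A549 PBS 4 at 10.31 and CHORDC1 of A549 PBS 3 at 13.26. Among ER genes, CRELD2 of H1975 Omomyc 5 was at 8.641, MANF of H1975 Omomyc 1 at 10.92, HYOU1 of A549 PBS 2 at 13.66, DNAJB9 of H1975 PBS 3 at 9.1 and MANF of A549 PBS 1 at 9.209.

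The response differed between lines by the limma test of the difference, at an adjusted p under 0.05, for 2 members and for partners, ER and mitochondrial genes. The change of H1975 minus that of A549 was -1.526 for DNAJA1, -1.062 for CRYAB, 1.384 for DNAJB5, -2.992 for HSPA2, -4.553 for CRELD2, -1.304 for DNAJB11 and -1.828 for HYOU1. CRYAB in all 6 groups and DNAJB5 in A549 lay in the range of background probe sets (means up to 6.69), so their differences have no exact size. HSPA2 in H1299 lay there too with PBS (6.22, and 6.77 with Omomyc), so its difference between H1975 and H1299 has no exact size either. The change of H1975 minus that of H1299 was -1.01 for BAG3, -2.364 for DNAJB2, 2.58 for DNAJB5, 1.031 for DNAJC7, -2.727 for HSPA2 and 1.145 for HSPA9. For ER genes it was 1.097 (DNAJB9), 2.238 (HERPUD1), 1.284 (HSPA5) and -0.9748 (P4HB). The change of A549 minus that of H1299 was 0.9793 for CRYAB, 3.982 for CRELD2, 1.206 for DNAJB11, 1.749 for DNAJB9, 2.408 for HERPUD1, 1.427 for HSPA5, 2.05 for HYOU1 and 1.589 for MANF. No cause of these differences was tested.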

How the results depend on the processing

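The falls of DNAJA1 and HSPA1A in H1975 kept their direction in every alternative run. DNAJA1 was called in each, but in H1975 run 1 alone has 1 PBS array and run 3 alone 1 array of each treatment, so there the spread comes in part or whole from the other groups of the run and the lone arrays are assumed to vary like them. HSPA1A was not called in run 2 alone (-0.70, adjusted p 0.316) or with the replicate block and the run together (-0.79, 0.293), and HSPH1 was not called under median centring (0.235), with that double block (0.22) or in any run alone. Of 3087 values of named genes under alternatives, 97 changed sign, and 0 of these were called in either fit. In every line each run held 1 or 2 arrays a group (0 for Omomyc in run 3 of A549), so runs alone rest on few arrays. The causes of the changes listed here were not tested. HSP90AA1 in place of HSP90AB1 was not run, as HSP90B1 was not analysed here.

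With the replicate block, HSPA4 was 0.12 and CRYAB 0.095 in H1975, and sign changes within pairs gave -1.14 for HSPH1 minus HYOU1 (adjusted p 0.25, where 4 pairs cannot give an unadjusted p under 0.125). It changed no call of a member in A549 or H1299. With the replicate block and the run together, H1975 had 1 lower member and 1245 genes called, with HSPA4 at 0.0016, CRYAB at 0.070, CACYBP at 0.058 and DNAJC7 at 0.090, and H1299 had 10 ER genes higher and 2622 genes called. With the run as a block, 3400, 502 and 2812 genes were called in H1975, A549 and H1299, and 10 ER genes were higher in H1299. Lower members then numbered 2, 3 and 1 for the response differences H1975 minus A549, H1975 minus H1299 and A549 minus H1299, the last with 1 higher member and DNAJB1 at -0.023. The PBS difference of H1975 and A549 then had 4 lower members.

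Under median centring, HSPA4 was 0.045, CRYAB 0.10 and DNAJC7 0.045 in H1975, and H1299 had 1 higher member and HSPA5 at 0.023. The response difference H1975 minus H1299 had 0 lower members, and that of A549 minus H1299 had HSP90AB1 at -0.041. The PBS difference of H1975 and A549 had 1 higher and 4 lower members, with HSPA1A at -0.020. After quantile normalization, A549 had 351 genes called, HSP90AB1 at -0.050 and HSPD1 at -0.042, and HSPA5 was 0.058 in H1299. Lower members then numbered 2, 3 and 1 for the same 3 response differences, with HSP90AB1 at -0.056 in the last, and HSPH1 minus HYOU1 shifted by -1.10 in H1975 (adjusted p 0.0635). Leaving out dim genes gave 2 lower members for H1975 minus A549. Trend and robust moderation gave 2 there and 1 for A549 minus H1299. The share of all genes called in the line comparisons was not counted under these settings or with 1 array left out. The member counts of those comparisons can therefore not be set against it.

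In run 1 alone, H1975 had 3 ER genes higher, 1018 genes called, DNAJB11 at -0.22 and CRYAB at 0.28, and A549 had 50 genes called and HSPA1A at -0.067. H1299 then had 0 higher and 0 lower members, 0 higher ER genes and 81 genes called, with HSPA4 at 0.019, HSPH1 at -0.16, HSP90AB1 at -0.17, HYOU1 at -0.17 and HSF1 at -0.046. In run 2 alone, H1975 had 1 lower member, 1047 genes called, HSPA4 at 0.0026, HSF1 at -0.061, CACYBP at 0.038 and CRELD2 at 0.0052. A549 then had a member median of -0.22, 4 higher ER genes, 44 genes called, HSP90AA1 at -0.11 and HSF1 at 0.39. H1299 then had 0 higher and 0 lower members, 0 higher ER genes and 523 genes called, with DNAJB5 at -0.075 and CRYAB at -0.084. In run 3 alone, H1975 had an ER median of 0.24, 780 genes called, HSPD1 at -0.24, DNAJC7 at 0.28 and P4HB at -0.11. H1299 then had 1 higher and 0 lower members, a member median of 0.19, 2 higher ER genes, HSPA1A at 0.26, DNAJB1 at 0.25 and HSPA5 at 0.11. In fits on a line alone, A549 had 81 genes called, and H1299 had 0 higher members, 1 lower member and 3 higher ER genes.

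For the pairs of genes, DNAJA1 in place of DNAJB1 gave shifts of -1.83, -1.60 and -1.14 in H1975, A549 and H1299 (adjusted p 0.0159, 0.0343 and 0.0159). HSPA4 in place of HSPH1, chosen after seeing the data, gave -0.51 in H1975 (adjusted p 0.0635).

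Leaving out 1 array at a time gave ranges in H1975 of -0.067 to 0.095 for CRYAB, -0.21 to 0.046 for DNAJC7, -0.21 to 0.12 for HSPA4 and -0.0092 to 0.16 for P4HB. In A549 it gave -0.11 to 0.099 for DNAJA1, -0.36 to 0.24 for DNAJB1, -0.097 to 0.13 for BAG2, -0.026 to 0.099 for HSP90AB1, -0.16 to 0.060 for BAG3, -0.042 to 0.22 for HSPD1 and 128 to 188 genes called. In H1299 it gave 0 to 2 higher and 0 to 2 lower members, 3 to 7 higher ER genes, -0.090 to 0.073 for HSP90AB1, -0.077 to 0.066 for HSPA5 and -0.13 to 0.14 for DNAJB5. The response difference H1975 minus A549 had 1 to 2 lower members, and for HSPA4 that of H1975 minus H1299 ran from -0.022 to 0.31. That of A549 minus H1299 had 0 to 1 lower members, -0.18 to 0.039 for HSPA4, -0.032 to 0.14 for HSP90AB1 and -0.20 to 0.41 for DNAJB1. The PBS difference of H1975 and A549 ran from -0.047 to 0.33 for HSPA1A and from -0.00023 to 0.61 for DNAJB1. The shift of HSPH1 minus HYOU1 in H1975 ran from -1.14 to -0.93, and that of DNAJB1 minus DNAJB11 in H1299 from -0.69 to -0.40, called at an adjusted p of 0.0476 without PBS 4. With the run as a block as well, chosen after seeing the data, no member lost its call, HSP90AB1 gained one in H1975 without PBS 2 (0.48) and DNAJB1 without Omomyc 3 (-0.67), and the values that changed sign were 0.023 for HSPA4 in H1975 without Omomyc 5, 0.015 for BAG3 in A549 without PBS 3, -0.091 for HSPA1A in A549 without Omomyc 1 or 3, and 0.12 for DNAJB1 in A549 without Omomyc 3. In H1299 they were -0.077, -0.0040 and -0.070 for HSP90AB1 without PBS 2, PBS 5 or Omomyc 5, 0.011 for DNAJB1 without Omomyc 1 and -0.0063 for HSPH1 without Omomyc 2.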
